A study of Mus musculus with 6 samples.

Results

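The CCN family is a small group of secreted matricellular proteins, which sit in the extracellular matrix and signal to cells without building its structure. Its genes were taken by their older symbols, Cyr61 (CCN1), Ctgf (CCN2), Nov (CCN3), Wisp1 (CCN4) and Wisp2 (CCN5), which gave 5 of the 23366 genes listed. The rule uses no measured value. RNA was sequenced from SC4 cells, a mouse Schwann cell line isolated from a schwannoma, and the question was which genes depend on YAP. The control group (3 libraries) received a control siRNA and the other group (3 libraries) a Smartpool, a mixture of siRNAs against YAP, and RNA was extracted 48 hours later. Every cell in both groups is Nf2-null, that is, without the tumour suppressor merlin.

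Merlin acts in the Hippo pathway, which keeps the co-activator YAP out of the nucleus. YAP has no DNA-binding domain of its own and reaches its target genes through TEAD transcription factors. Cyr61 and Ctgf are among the genes most used as readouts of YAP, and the Wisp genes were named for induction by Wnt1. CCN proteins share a signal peptide followed by modules resembling an insulin-like growth factor binding protein, a von Willebrand factor C repeat, a thrombospondin repeat and a C-terminal cystine knot. They bind integrins, LRP receptors and heparan sulphate proteoglycans, and the C-terminal module takes part in several of these contacts. WISP2 is the member that lacks the C-terminal module. In the GENCODE M21 annotation the longest coding sequences were 379 codons for Cyr61, 348 for Ctgf, 354 for Nov and 367 for Wisp1, each on 5 coding exons, and 251 codons on 4 coding exons for Wisp2.

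A promoter entry of RefSeq (GRCm38.p6) was matched for 1 of the 5 members, Cyr61. The 250 bases before its start site, at chr3:145649986-145650235 on the minus strand, are shown because YAP works through TEAD sites and this gene is a standard YAP readout. Capitals mark the 2 matches described below.
Cyr61 promoter: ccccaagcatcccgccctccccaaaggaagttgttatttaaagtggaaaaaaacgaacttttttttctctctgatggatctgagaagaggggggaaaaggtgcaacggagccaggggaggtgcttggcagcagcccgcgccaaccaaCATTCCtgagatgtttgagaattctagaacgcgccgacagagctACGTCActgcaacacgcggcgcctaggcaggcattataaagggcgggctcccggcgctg
The first is the TEAD motif GGAATG, read on the opposite strand, whose first base lies 103 bases before the start site. The second is the cAMP response element core TGACGT, also on the opposite strand, 59 bases before it. Of 32851 promoters searched over the same length and on both strands, 12.6% held GGAATG and 6.47% held TGACGT. The AP-1 motif TGANTCA was found in 6.75% of them and the CArG box, the binding sequence of SRF, in 1.47%, and neither had a match in these 250 bases of Cyr61. The motifs do not overlap in this stretch, and a match is a string of letters, not evidence of binding.

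The libraries held between 18025132 and 60078880 reads in genes, recovered from the deposited normalized counts, and 12820 genes with a mean of at least 10 were tested. Yap1 itself was at 4750, 5732 and 4751 normalized counts in control replicates 1, 2 and 3 and at 936, 571 and 475 in the same replicates of YAP siRNA. The level left in the library of the same number was 0.197, 0.0997 and 0.0999 of the control. Replicate 1 stood apart in both groups. In the unpaired limma fit, 0 genes were called higher and 0 lower at a Benjamini-Hochberg adjusted p under 0.05 (1558 genes at an unadjusted p under 0.05; edgeR 0 and 0, DESeq2 330 and 399). When the model held replicate number as a block (the blocked fit), limma called 1067 higher (8.32% of those tested) and 1149 lower (8.96%). Rose and fell refer below to genes that passed in the blocked fit, although the unpaired fit was planned as the main one. Separate cultures are not named in the labels, and the p-values therefore reflect only library-to-library spread, possibly of technical origin. Among Schwann cell markers, Sox10 and S100b had a mean under 10, whereas 9 reached it, led by Pmp22, Ngfr and Mbp. The summed level of 5 macrophage and leukocyte markers was 284 to 322 in the controls and 193 to 252 after YAP siRNA, with Emr1 and Itgam under a mean of 10. Summed fibroblast markers, led by Col1a1, Col1a2 and Col3a1, were at 274850 to 572356 in the controls and 221972 to 431851 after YAP siRNA. Summed Schwann markers were far lower, at 8892 to 11589 in the controls and 8757 to 17130 after YAP siRNA. The lists differ in their number of genes and the counts were not scaled for length, so the sums do not give shares of cells. The Schwann, fibroblast and endothelial sums overlapped between the groups, and the part of other cells in the results below was not tested. Overlapping sums do not mean unchanged markers. Pmp22 had 1130.5, 5149 and 5537 normalized counts in control replicates 1, 2 and 3 and 2208, 11071 and 10617 after YAP siRNA. Ngfr went the other way, with 4621, 2036 and 1790 in the controls and 3486, 1050.5 and 876 after YAP siRNA.

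Of the 5 CCN genes, Wisp2 rose after YAP siRNA, with a mean 6.05 times that of the controls. Cyr61, Ctgf, Nov and Wisp1 did not pass the test in either fit. Thus 1 of 5 members was called higher, where 8.32% of all tested genes were, and 0 of 5 lower, where 8.96% were. Wisp2 was also the member whose groups did not overlap, as in 9.47% of tested genes in the same direction. In bulk RNA, a change in the number of cells making a transcript and a change in RNA per cell cannot be told apart.

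**Figure D1:**
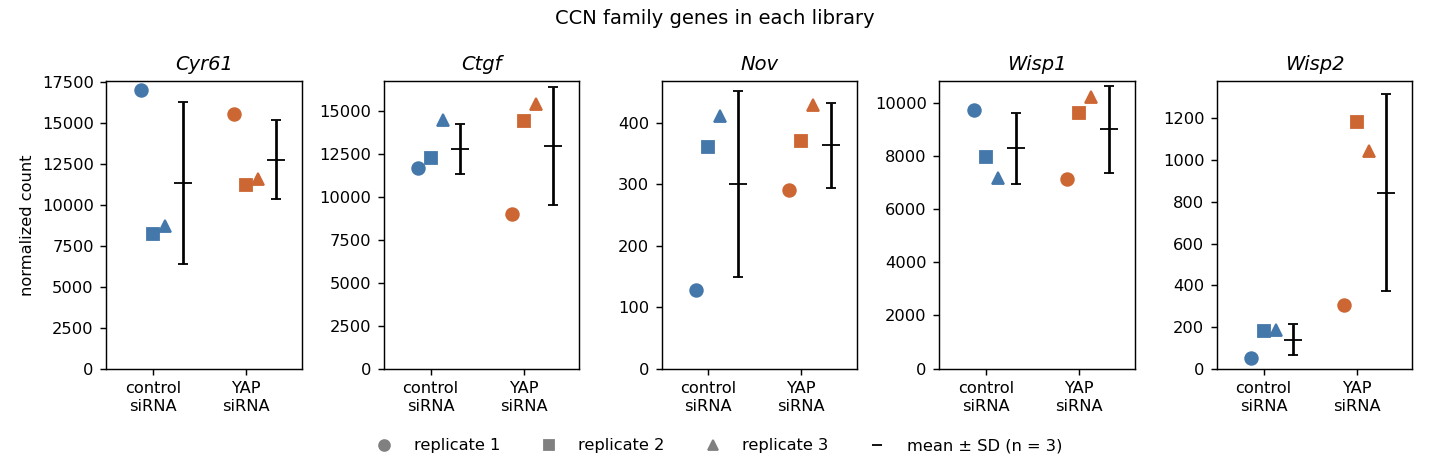
Normalized counts (linear axes from 0) of the 5 CCN genes in each library, by siRNA and replicate number, with the mean and SD of 3 libraries beside them. Every YAP siRNA library lies above every control library for Wisp2, with 303 in the lowest YAP siRNA library and 183 in the highest control, and the groups overlap for the other genes.

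Cyr61 encodes a heparin-binding integrin ligand made early after growth stimulation. It had 17033, 8220 and 8719 normalized counts in control replicates 1, 2 and 3, and 15531, 11211 and 11568 after YAP siRNA. Replicate 1 was the highest library of each group, so the control range contained all YAP siRNA values. Its log2 fold change, on the log2(value + 1) scale used throughout, was 0.24 with a 95% interval of −0.034 to 0.52 in limma with the block (SE 0.121, adjusted p = 0.196; 0.852 without the block). Within same-numbered libraries the log2 difference was −0.13, 0.45 and 0.41 for numbers 1, 2 and 3. Without replicate 1 of both groups it was 0.43 and passed as higher (adjusted p = 1.11e-06 in the blocked limma fit and 0.00454 in the unpaired one). This setting without replicate 1 was, in its unpaired form, chosen after seeing the data. Without replicate 1, 2804 of the 12820 tested genes were called higher with the block and 1912 in the unpaired fit, so the call is not particular to Cyr61. With so few libraries left, the blocked p-value rests mainly on variances borrowed from other genes.

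Ctgf encodes connective tissue growth factor, a profibrotic protein induced by TGF-beta. Its control values were 11640, 12274 and 14436 normalized counts, and those after YAP siRNA 8999, 14390 and 15373. The YAP siRNA libraries thus held both the lowest and the highest value of the 6. The log2 fold change was −0.017 with a 95% interval of −0.29 to 0.25 in limma with the block (adjusted p = 0.934), and its sign turned with the scaling, at 0.011 with libraries set to the same total. Number 1 differed by −0.37, number 2 by 0.23 and number 3 by 0.091. Without replicate 1 of both groups the value was 0.16 (limma adjusted p = 0.0909 with the block). In GENCODE M21, 665 of the 2861 exonic bases of Ctgf (23.2%) overlap Gm15270, a gene on the opposite strand that was not analysed here. The strand setting of the counting is not given, so reads of both genes in that stretch cannot be told apart. The other 4 members shared 0 exonic bases with another annotated gene.

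Within a library, the ratio of Cyr61 to Ctgf is free of that library's scaling. The log2 ratio of normalized counts was 0.55, −0.58 and −0.73 in control replicates 1, 2 and 3 and 0.79, −0.36 and −0.41 after YAP siRNA. It was higher after YAP siRNA in 3 of 3 same-numbered pairs, by 0.24, 0.22 and 0.32. The mean difference of 0.26 was smaller than the spread between libraries of a group (SD 0.698 and 0.677), and the two-sided p from an exact permutation test was 0.5. An exact sign-flip test over the pairs gave p = 0.25, the smallest that 3 pairs allow. The ratio thus moved more with the replicate number than with the siRNA.

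Nov encodes a CCN protein often found to oppose growth. It had 127, 361 and 411 normalized counts in the controls and 291, 370 and 428 after YAP siRNA. Replicate 1 was the lowest of each group, and only in number 1 did the siRNA groups lie far apart. There the log2 difference was 1.18, against 0.037 and 0.057 in numbers 2 and 3. The combined log2 fold change was 0.43 with a 95% interval of −0.12 to 0.97 in limma with the block (adjusted p = 0.242), and −0.10 in limma without control replicate 1. The control value of replicate 1 came from 84 reads, with an exact Poisson 95% interval of 102 to 158 normalized counts, which covers counting error alone.

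Wisp1 encodes a secreted protein induced by Wnt and beta-catenin signalling. Its normalized counts were 9737, 7953 and 7151 in control replicates 1, 2 and 3, and 7133, 9622 and 10224 after YAP siRNA. Replicate 1 was the highest control and the lowest YAP siRNA library. The log2 difference was −0.45, 0.27 and 0.52 for numbers 1, 2 and 3, and 0.11 overall with a 95% interval of −0.25 to 0.48 in limma with the block (adjusted p = 0.659). Without replicate 1 of both groups it was 0.40 and passed as higher. The adjusted p was 9.7e-06 in the blocked limma fit and 0.010 in the unpaired one, also chosen after seeing the data. Those 2 fits called 2804 and 1912 of the 12820 tested genes higher. In sign, Cyr61, Ctgf and Wisp1 were each lower after YAP siRNA in number 1 and higher in numbers 2 and 3. The share of all tested genes with these signs was not counted. Number 1 is also where the most Yap1 RNA was left, and whether this bears on these signs was not tested.

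Wisp2 encodes the short CCN protein. It had 53.1, 182 and 183 normalized counts in control replicates 1, 2 and 3, and 303, 1183 and 1044 after YAP siRNA. Replicate 1 was the lowest library of each group, yet the rise was of like size in each pair, at 5.70-fold, 6.51-fold and 5.70-fold for numbers 1, 2 and 3. The log2 fold change was 2.56 with a 95% interval of 2.21 to 2.92 in limma with the block (SE 0.157, adjusted p = 0.000451). Without the block the SE was 0.697 and limma adjusted p = 0.247, and the two-sided exact permutation p was 0.1, which is the lowest possible value with 3 libraries in each group. By log2 fold change it ranked 17 from the top of the 12820 genes tested, and 33 genes (0.257%) passed with the block and a log2 fold change of at least 2. The lowest value rested on 35 reads, with an exact Poisson 95% interval of 37.0 to 73.9 normalized counts, and the lowest after YAP siRNA on 252 reads, with an interval of 267 to 343.

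**Figure D2:**
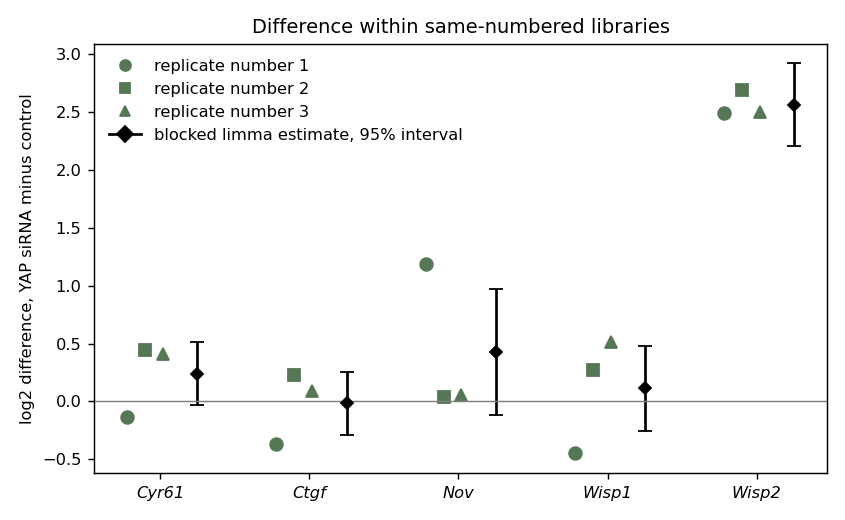
Log2 difference (YAP siRNA minus control) within same-numbered libraries for each CCN gene, with the limma estimate of the fit with the replicate block and its 95% interval. Wisp2 lies between 2.49 and 2.70 in all pairs, Nov is high in number 1 alone at 1.18, and Cyr61, Ctgf and Wisp1 lie below 0 in number 1 and above it in numbers 2 and 3.

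The rise of Wisp2 was set against each other member by the log2 ratio within a library. These 4 ratios were not planned, and with Wisp2 as their shared numerator they restate its rise and add no separate support. The ratio was higher after YAP siRNA by 2.32 against Cyr61, 2.58 against Ctgf, 2.14 against Nov and 2.45 against Wisp1. Within same-numbered pairs it was higher in 3 of 3 for each of the 4 ratios. This had to follow, as Wisp2 rose by 2.49 to 2.70 in the pairs and the largest rise of another member was 1.18 (Nov, number 1). The differences for numbers 1, 2 and 3 were 2.62, 2.25 and 2.10 against Cyr61 and 2.86, 2.47 and 2.41 against Ctgf. They were 1.31, 2.66 and 2.45 against Nov and 2.94, 2.42 and 1.99 against Wisp1. An exact sign-flip test over the pairs, two-sided, gave p = 0.25 for each, the lowest that 3 pairs allow. Exact permutation tests that ignore the pairs gave p = 0.3 against Cyr61 and p = 0.1, their lowest possible value, against the others (0.375 and 0.167 adjusted over 5 ratios, Cyr61 to Ctgf included). Neither test can reach 0.05 with these libraries.

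Per length, the genes fell into an abundant and a scarce group. In normalized counts per kb of merged exons, the controls ranged from 4071 to 8437 for Cyr61 and from 4069 to 5046 for Ctgf, which did not differ beyond their spread. Wisp1 followed at 1285 to 1750, below every Ctgf value. Nov at 44.4 to 143 and Wisp2 at 27.6 to 95.3 came last, with overlapping ranges. By control mean, Cyr61 stood above 99.3% of 12728 genes with a length, Ctgf above 98.9%, Wisp1 above 93.7%, Nov above 35.8% and Wisp2 above 29.1%. Wisp3 (CCN6), which the choice by symbol did not include, was listed at 0 in all 6 libraries, where up to 3 reads per library cannot be told from 0.

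After YAP siRNA the order of the scarce members turned. Wisp2 was below Nov per kb in each control library and above it in each YAP siRNA library, at 157, 615 and 543 against 101, 129 and 149 in replicates 1, 2 and 3. By its mean after YAP siRNA, Wisp2 stood above 72.8% of the same genes and Nov above 39.4%. Cyr61 ranged from 5553 to 7693 and Ctgf from 3145 to 5373 per kb. That gap closed when lengths came from the longest coding transcript, where the highest Ctgf value was 6174. Wisp2 made up 0.193%, 0.943% and 0.875% of the summed per-kb level of the 5 genes in control replicates 1, 2 and 3, and 1.27%, 4.71% and 3.98% after YAP siRNA. The summed normalized counts of the family were 32827 ± 5083 for control siRNA and 35890 ± 3281 for YAP siRNA (SD, n = 3). A two-sided exact permutation test that ignores the pairs gave p = 0.4, so without pairs the sum did not differ beyond the spread between libraries. In number 1 the sum was lower after YAP siRNA, at 32257 against 38592 in the control. In numbers 2 and 3 it was higher, at 36776 against 28990 and 38637 against 30901. The sum was not tested with the block. The sum mostly reflects Cyr61, Ctgf and Wisp1, as Wisp2 made up 0.138% of it in control replicate 1 and at most 3.22%, in YAP siRNA replicate 2.

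**Figure D3:**
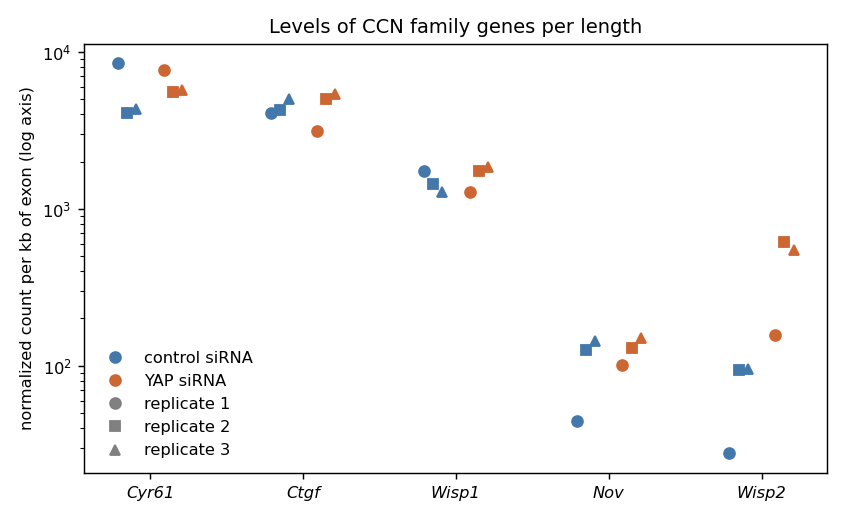
Normalized counts per kb of merged exons (log axis) for the 5 CCN genes in each library, by siRNA and replicate number. Cyr61, Ctgf and Wisp1 do not fall below 1282 in any library, while Wisp2 lies between 27.6 and 95.3 in the controls and between 157 and 615 after YAP siRNA.

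The genes with the profile most like each member were found by the root mean square distance between log2 profiles over the 6 libraries, each gene centred on its own mean, among 10753 other genes with a mean of at least 50. Nearest to Wisp2 were Prelp, a leucine-rich repeat proteoglycan of the matrix, at 0.333, Cyp1b1, a cytochrome P450 induced through the aryl hydrocarbon receptor, at 0.339, and Enpp2, which encodes the lysophosphatidic acid-producing enzyme autotaxin, at 0.497. Prelp had 71.3, 200 and 225 normalized counts in the controls and 210, 1457 and 1447 after YAP siRNA. Unlike Wisp2, Prelp in YAP siRNA replicate 1 was below its highest control. Wisp2 itself deviated from its mean by 1.54 on this scale, so the distances are small beside its own variation.

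Nearest to Cyr61 were Ube2d1, a ubiquitin-conjugating enzyme, at 0.0317, Tmem123 at 0.0415 and the small GTPase gene Rab14 at 0.0437. Nearest to Ctgf were the nucleoside transporter gene Slc29a3 at 0.0528, Tmem218 at 0.0581 and the histone deacetylase gene Hdac4 at 0.0682. B3gnt9, Mesdc1 and Fbxo36 were nearest to Nov, at 0.0653 to 0.115, and Capn10, Arl10 and Cybasc3 to Wisp1, at 0.0619 to 0.0926. No member was among the 3 nearest of another. Ordered by distance from Cyr61, Wisp1 ranked 4062 and Ctgf 7057. The smallest distance within the family was that of Ctgf and Wisp1, at 0.243, and Wisp1 ranked 1576 from Ctgf. That distance is about as large as their own deviations from their means (0.261 for Ctgf and 0.215 for Wisp1), so their profiles were not alike. From Cyr61 to Ctgf the distance was 0.576, above the own deviation of each (0.388 for Cyr61).

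**Figure D4:**
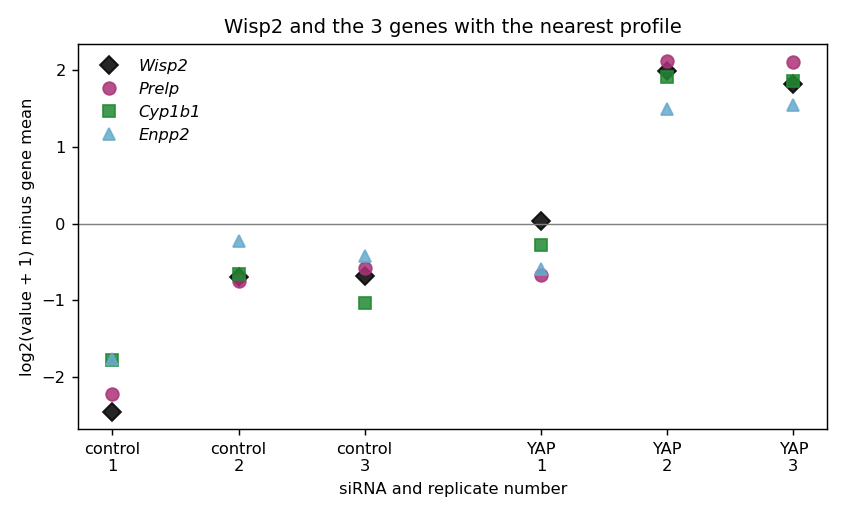
Log2(value + 1) minus the gene's own mean in each library for Wisp2 and the 3 genes nearest to it by profile. All 4 genes are lowest in control replicate 1 and highest in YAP siRNA replicates 2 and 3, and Wisp2 lies above the others in YAP siRNA replicate 1.

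CCN proteins act through receptors and through other secreted proteins that they bind. Of 26 such genes, 23 were tested, and 2 rose and 6 fell with the block, or 34.8% against 17.3% of all tested genes. The median log2 fold change was −0.33, against 0.0094 over all tested genes. The list was chosen with earlier results of these data known, so these shares are descriptive and no test of the partners. Vegfa, a growth factor that CTGF binds, had 8100, 7875 and 8168 normalized counts in control replicates 1, 2 and 3 and 4524, 3484 and 3028 after YAP siRNA, with no overlap. Its log2 fold change was −1.15 (SE 0.117; blocked limma fit, adjusted p = 0.00156). Itga5, the alpha subunit of the fibronectin receptor, had 11335, 13270 and 13082 in the controls and 7058, 6639 and 6825 after YAP siRNA, again without overlap (log2 fold change −0.87, limma adjusted p = 0.00171 with the block). The share of all tested genes that were lower without overlap was not counted. Itga6, whose protein pairs with integrin beta-1 as a receptor for CCN1, fell by 0.61 on the log2 scale.

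The other partners that fell were Dcn (log2 fold change −0.99), Tgfb1 (−0.64) and Fn1 (−0.35), and those that rose were Notch1 (0.60) and the heparan sulphate proteoglycan gene Sdc4 (0.54). Itgav, Itgb1 and Lrp1, which encode receptor subunits for several CCN proteins, had log2 fold changes of −0.15, −0.22 and −0.33 and did not pass (limma adjusted p = 0.384, 0.120 and 0.0970 with the block). Dcn, Tgfb1, Fn1, Notch1, Sdc4, Itgav, Itgb1 and Lrp1 were named after their values were seen. Of the 8 partners that had passed, only Itga5 and Vegfa kept their call without replicate 2 of both groups (limma adjusted p = 0.0205 and 0.0124 with the block), without replicate 3 Sdc4, Dcn and Fn1 lost theirs (0.0616, 0.113 and 0.139), and in limma without a mean-variance trend none of those 8 partners passed with the block.

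Of 23 regulators that are known to act on CCN genes, all were tested, and 4 rose and 4 fell with the block, the same 34.8%. The median log2 fold change was 0.19. Yap1, the target of the siRNA and so set to fall by the design, is counted among the lower. This list too was chosen with earlier results of these data known, so its share is descriptive. Tead1, the DNA-binding partner of YAP, had 5417, 4942 and 4888 normalized counts in control replicates 1, 2 and 3 and 9463, 10303 and 11372 after YAP siRNA, with no overlap (log2 fold change 1.03, SE 0.0994; blocked limma fit, adjusted p = 0.00142). Of all tested genes, 9.47% were higher without overlap. Tead3 and Tead4 fell, with log2 fold changes of −0.85 and −0.70. Wwtr1, which encodes TAZ, the paralogue of YAP that also acts through TEAD factors, was at 6397 ± 414 and 6507 ± 339 normalized counts (SD, n = 3; log2 fold change 0.025, limma adjusted p = 0.853 with the block).

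On the Wnt side, Ctnnb1, which encodes beta-catenin, had 4413, 21375 and 18533 normalized counts in the controls and 7412, 33033 and 34664 after YAP siRNA. Replicate 1 was far below the others in each group, so the groups overlapped, and the rise showed within same-numbered libraries (log2 fold change 0.76, SE 0.0880; adjusted p = 0.00212 in the blocked limma fit and 0.804 in the unpaired one). Lef1 rose by 0.65 and Tcf7l2 fell by 0.48 on the log2 scale, and both encode transcription factors that bind beta-catenin. Smad3, which carries TGF-beta signals to Ctgf, rose by 0.35. Srf, Mkl1 and Mkl2, which act on Cyr61 and Ctgf through CArG boxes, had log2 fold changes of 0.50, −0.20 and 0.31 and did not pass. Tead3, Tead4, Lef1, Tcf7l2, Smad3, Wwtr1 and the SRF group were named after their values were seen. Without replicate 2 of both groups, Yap1, Tead1 and Ctnnb1 kept their call and the other 5 did not (limma adjusted p from 0.110 to 0.352 with the block), and without replicate 3 Tead4, Smad3 and Tcf7l2 lost theirs (0.112, 0.212 and 0.0964). In limma without a mean-variance trend none of the 8 passed with the block, with Yap1 at 0.0604, whereas Wisp2 passed at 0.0479.

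**Figure D5:**
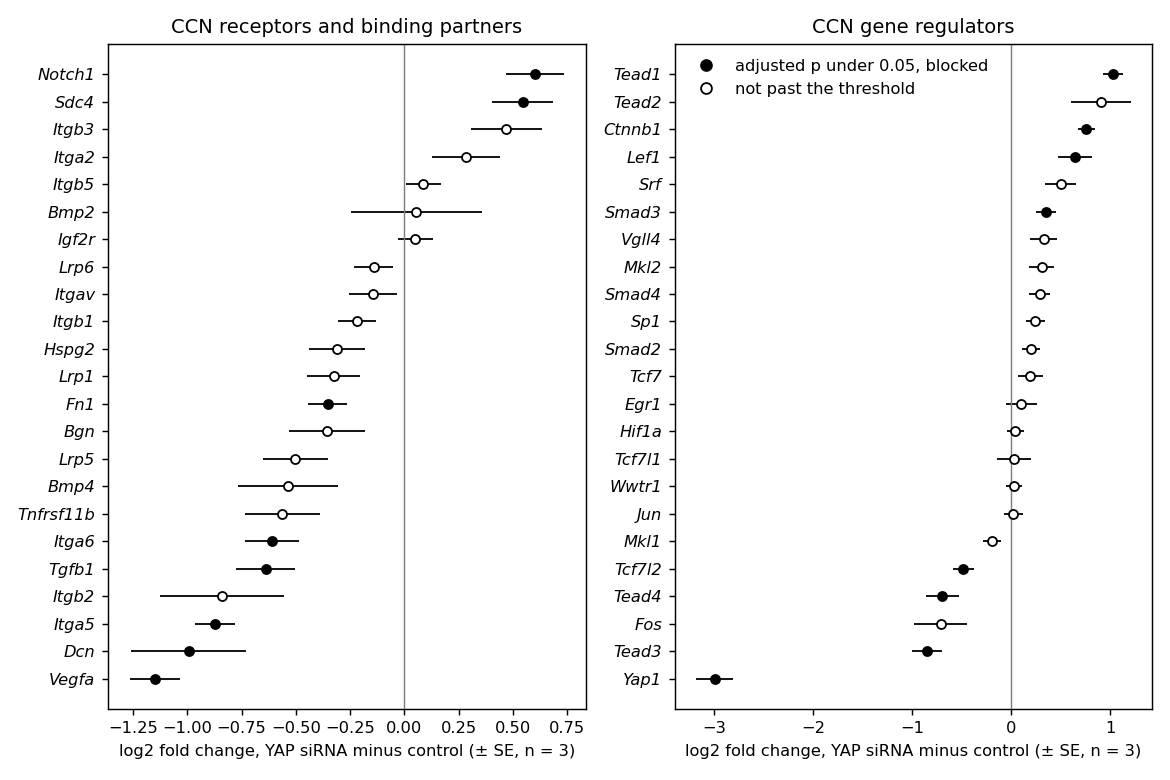
Log2 fold change (YAP siRNA minus control, with the SE of the fit with the replicate block, n = 3) of 23 receptors and binding partners of CCN proteins and of 23 regulators of CCN genes. Filled points passed at an adjusted p under 0.05 with the block, 8 in each list, from Vegfa at −1.15 to Notch1 at 0.60 and from Yap1 at −3.00 to Tead1 at 1.03.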

How the data were processed

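RNA sequencing was analysed from 6 libraries. The deposited values are a signal unit, gene counts scaled by the authors with library size factors. Per the submitters' processing notes, the build was mm9 and the tools named were HTSeq 0.6.1, TopHat2 2.0.9 and DESeq 1.14.0; how genes were annotated, strand handled and rows filtered is not given in the sources used here. Every value above 0 was a whole multiple of its library's step within 0.01 reads (100% in each), so reads were recovered; 1 read was worth 0.461 to 1.52 normalized counts.

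Here log2(value + 1) was tested with limma 3.58.1 in R 4.3.3 (mean-variance trend, two-sided) where a gene's mean reached 10. The method was run on simulated counts in which same-numbered libraries shared a mean before changes were added. That simulation takes the pairing as given and cannot test it. edgeR 4.0.16 and DESeq2 1.42.0 used recovered reads. Alternatives were pseudocounts, filters, scalings, no trend, the replicate block and left-out libraries. Deviations from group means correlated at 0.788, 0.705 and 0.532 for same-numbered libraries 1, 2 and 3. The numbers were taken as pairs on this ground, and no label names a shared day. Replicate 1 correlated at −0.751 to −0.62 with the other numbers. Deviations from a group mean cancel out within the group, so these negative values follow in part from the positive ones. They add no separate support for the pairing. For YAP siRNA replicate 3 the criterion failed, at 0.552 with control replicate 2 and 0.532 with control replicate 3. YAP siRNA replicate 2 correlated at 0.516 with control replicate 3. The pairing of numbers 2 and 3 is therefore uncertain, and the block rests mainly on replicate 1.

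Exon and coding lengths came from GENCODE M21 (GRCm38, not the build of the files); 23006 of 23366 genes matched, 1274 by an older symbol. Members, lists and the naming rule were chosen with earlier results of these data known. The rule named the 5 members, Yap1, up to 3 passing genes per list with the smallest blocked p, and the 3 nearest profiles of each member. Of the fixed Schwann cell markers, 1 is not reported here.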

Additional observations from a re-analysis of the deposited data

How the results depend on the processing

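Wisp2 was higher in all settings run, with log2 fold changes of 1.98 to 3.19 when 1 library was left out of the unpaired fit. Its unpaired call came with DESeq2 (2.59) and, in a setting chosen after seeing the data, without replicate 1 of both groups (2.60). Its value passed with the replicate block in limma (2.56), edgeR (2.58), DESeq2 (2.58), limma without replicates 1, 2 or 3 (2.60, 2.50 and 2.59), and, added after seeing the data, without a trend (2.56), with the same total per library (2.59) and with quantiles (2.54).

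Ctgf turned above 0 with the same total per library (0.011, with or without the block), edgeR (0.017), DESeq2 (0.014) and without replicate 1, paired or not (0.16); it was −0.16 to 0.22 with 1 library left out. Without replicate 1, paired or not, Cyr61 passed at 0.43 and Wisp1 at 0.40, where 2804 (paired) and 1912 (unpaired) of 12820 tested genes were called higher. Wisp1 was −0.087 with the block without replicate 3. With 1 library left out, Cyr61 lay between 0.051 and 0.58, Nov between −0.10 and 0.74, Wisp1 between 0.013 and 0.27, and the Cyr61 to Ctgf difference between −0.13 and 0.66.

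Over all genes, higher and lower calls were 0 and 0 without the block, 330 and 399 with DESeq2, and 1912 and 2106 unpaired without replicate 1. With 1 library left out they were 0 to 192 and 0 to 305. With the block they were 1067 and 1149 in limma, 1190 and 1289 in edgeR, 1182 and 1308 in DESeq2, 2804 and 2792, 123 and 177, and 538 and 590 without replicate 1, 2 and 3, 12 and 18 without a trend, 1225 and 1027 with the same total, and 1167 and 1182 with quantiles. Calls among partners and regulators were 0 and 0 without the block, 2 and 3 with DESeq2, 17 and 14 unpaired without replicate 1, and 0 to 2 each with 1 library left out. With the block they were 8 and 8 in limma, with the same total and with quantiles, 10 and 9 in edgeR, 11 and 9 in DESeq2, and 17 and 15, 2 and 3, and 5 and 5 without replicate 1, 2 and 3. The cause of these differences was not tested. Depth limits Nov and Wisp2 most, with counting errors of 10.9% and 16.9% in control replicate 1.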
